A study of Rattus norvegicus with 2 samples.

Results

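Immediate early transcription factors are encoded by genes that a cell switches on within minutes of a stimulus, without first making new protein. The set described here comprises 10 genes: Fos, Fosb, Jun, Junb, Egr1, Atf3, Myc, Nr4a1, Nr4a2 and Nr4a3. Its members were the probe sets that the platform annotation ties to exactly one gene bearing one of these symbols, which gave 16 of the 20826 probe sets with 1 gene symbol, and 10 of 14217 genes. All 10 genes had at least 1 probe set. No probe set shared between genes contained a member.

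The tissue was esophagus of male Sprague-Dawley rats, an outbred stock, bought at 5 to 6 weeks of age. In the treated group OSU-HDAC42, an inhibitor of histone deacetylases, was gavaged at 50 mg/kg for 7 doses, 350 mg/kg in all, and the control group received vehicle by the same route. Both groups were killed with CO2 on day 15, 24 hours after the last gavage, and RNA was measured on the Affymetrix 230 2.0 rat array. Each group has 1 array, the sources used here do not say whether an array stands for 1 rat or a pool, and the labels give no hour of the day. No error between rats can be attached to any value, and no test was possible.

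FOS and JUN proteins pair through leucine zippers to form AP-1, which binds DNA at the sequence TGANTCA. EGR1 is a zinc finger factor, ATF3 a stress-induced bZIP factor that often represses, and MYC a driver of growth and biosynthesis. NR4A1, NR4A2 and NR4A3 (NUR77, NURR1 and NOR-1) are orphan nuclear receptors whose activity is set mainly by how much of them is made. The genes are classically activated through serum response factor at CArG boxes and through CREB at cAMP response elements, and histone acetylation accompanies their induction. In squamous epithelium AP-1 and MYC are known for roles in proliferation and differentiation, and in skeletal muscle NR4A receptors are induced by exercise and beta-adrenergic stimulation.

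The RefSeq promoter table (GRCr8 assembly) held 5 of the 10 genes: Egr1, Fosb, Junb, Nr4a1 and Nr4a2. Atf3, Fos, Jun, Myc and Nr4a3 had no entry. In the 250 bases before the annotated start, searched on both strands, Egr1 alone had CArG boxes (CC, then a run of A or T, then GG), a motif present in 1.5% of all 33469 such windows. The core of the cAMP response element, TGACG, was present in 4 of the 5 windows (Egr1, Junb, Nr4a1 and Nr4a2) and in 18.2% of all windows. Of these windows, 3 are shown: Egr1 for its CArG boxes, Nr4a1 because it has the most TGACG matches, and Junb because TGACG lies there together with a TATA box on the plus strand. Egr1 lies at chr18:26736828-26737077 and Nr4a1 at chr7:134259888-134260137, both on the plus strand, and Junb at chr19:40080876-40081125, also on the plus strand. Capitals mark CArG boxes and TGACG on either strand, which reads CGTCA when it lies on the minus strand.
Egr1: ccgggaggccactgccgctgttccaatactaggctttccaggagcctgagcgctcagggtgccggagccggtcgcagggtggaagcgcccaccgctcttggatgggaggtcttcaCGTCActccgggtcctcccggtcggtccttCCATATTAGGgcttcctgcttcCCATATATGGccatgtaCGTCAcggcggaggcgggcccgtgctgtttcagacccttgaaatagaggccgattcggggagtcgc
Nr4a1: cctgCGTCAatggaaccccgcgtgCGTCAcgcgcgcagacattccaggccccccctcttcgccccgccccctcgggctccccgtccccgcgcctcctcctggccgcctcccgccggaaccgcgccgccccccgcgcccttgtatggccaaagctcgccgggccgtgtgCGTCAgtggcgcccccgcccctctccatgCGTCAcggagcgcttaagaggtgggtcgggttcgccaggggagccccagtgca
Junb: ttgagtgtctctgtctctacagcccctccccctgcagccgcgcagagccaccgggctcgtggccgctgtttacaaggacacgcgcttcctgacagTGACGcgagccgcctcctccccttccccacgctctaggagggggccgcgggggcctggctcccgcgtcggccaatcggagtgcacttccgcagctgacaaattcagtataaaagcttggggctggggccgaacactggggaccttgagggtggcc
The Egr1 window has 2 CArG boxes, CCATATTAGG starting 105 bases and CCATATATGG starting 83 bases before the start, with 1 CGTCA match before the pair and 1 after it. The Nr4a1 window has 4 CGTCA matches and 1 EGR motif (GCGGGGGCG or its variant GCGTGGGCG), a motif found in 2.85% of all windows. Junb has 1 TGACG match and a TATAAA box 49 bases before the start, and Fosb has the same box on the other strand 180 bases before it (12.9% of all windows). None of the 5 windows held a full TGACGTCA (1.59% of all windows), an AP-1 site TGANTCA (6.34%), the NR4A monomer site AAAGGTCA (1.24%) or the MYC E-box CACGTG (5.59%). These matches describe letters in one assembly and were not linked to the array probes.

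Of the 10 genes, 7 reached the expression floor defined below. Only Nr4a3 differed by at least 2-fold between the arrays, and it was higher after OSU-HDAC42. Of all genes at the floor, 1.88% were that much higher and 3.18% that much lower. Of the 3 Nr4a3 probe sets, the 2 that reached the floor were both at least 2-fold higher. For 1 of them the floor was reached on the OSU-HDAC42 array alone. Fos was 1.41-fold higher, Myc and Atf3 were 1.41-fold and 1.36-fold lower, and Egr1 and Jun differed little. Nr4a1 and Nr4a2, the close relatives of Nr4a3, were dim and not higher.

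Values are deposited intensities on a linear scale. They depend on each probe set's own probes, so they are compared between arrays and not between genes. Each difference is the log2 intensity after OSU-HDAC42 minus that after vehicle, with any intensity below 16 set to 16 first. The expression floor is 49.8, the median probe set intensity, to be reached on at least 1 array. It was reached by 10 of the 16 probe sets and by 7 of the 10 genes. Junb and 1 probe set of Nr4a3 reached it on the OSU-HDAC42 array alone, so counts over the passing probe sets are given as a description. With the floor required on both arrays, a setting chosen after the data were seen, 8 member probe sets passed. Of these, 1 was 2-fold higher (1393389_at), beside 1.45% of the 11425 named probe sets that passed. Among all 12310 named probe sets at the floor, 2.06% were higher and 2.81% lower by 2-fold or more. Beside that background stand 2 of 10 immediate early probe sets higher, both of Nr4a3, and 0 lower. Counted by gene, with the brightest probe set of each, the background was 1.88% higher and 3.18% lower, and the members gave 1 of 7 higher and 0 lower. With the threshold at 1.5-fold the same probe sets of Nr4a3 were the only ones past it, against 8.28% higher and 9.88% lower in the background. The median difference over all 16 probe sets was 0, as it was over all named probe sets. Raising sets a difference to 0 where both readings lie under 16, as in 3 of the 16. With no value raised the medians were -0.0027 and 0.016. At the floor they were 0.15 and -0.0035, the former including Junb and the Nr4a3 probe set that passed on the OSU-HDAC42 array alone.

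**Figure D1:**
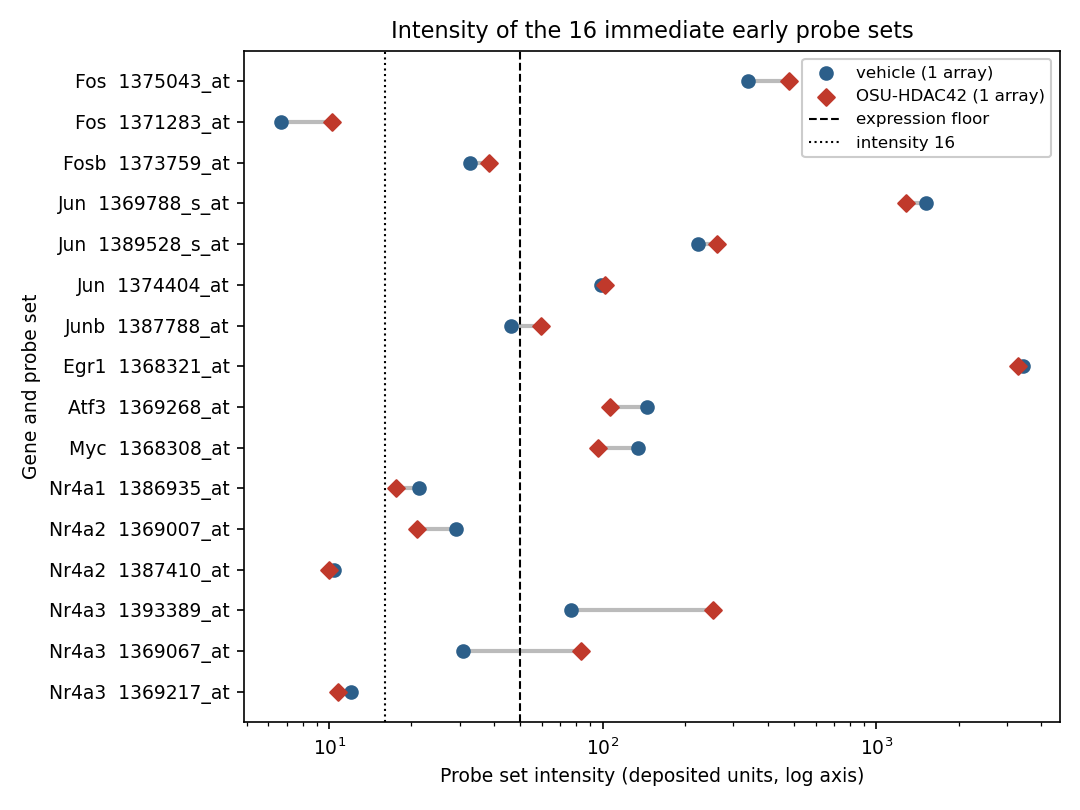
Deposited intensity of each of the 16 probe sets (log axis) on the vehicle array (circles) and the OSU-HDAC42 array (diamonds), with 1 array per group and no error bars. Dashed and dotted lines mark the floor of 49.8 and the value 16. Only 2 Nr4a3 probe sets show a wide gap, at 252 against 76.5 and 82.9 against 30.8.

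Nr4a3 encodes NOR-1. Probe set 1393389_at read 252 after OSU-HDAC42 and 76.5 after vehicle, a 3.30-fold higher value (log2 difference 1.72). Probe set 1369067_at read 82.9 and 30.8, 2.69-fold higher (1.43). The third, 1369217_at, read 10.8 and 12.1, under 16 on both arrays, and gives no difference. The brighter probe sets thus go the same way, while the dim one carries no measurement. Of the named probe sets at the floor, 0.211% had a difference as large as or larger than that of 1393389_at on the higher side. It is the largest difference of the 10 member probe sets at the floor, so this share describes its place and is no test. At mean intensities of 100 to 200, where 1393389_at lies, differences had an SD of 0.54 over 2355 probe sets, and 5% of them exceeded 0.81. From the floor to 100, where 1369067_at lies, the SD was 0.56 over 2286 probe sets and 5% exceeded 0.85. Probe sets of one gene share its RNA and are not replicates, and 1369067_at reached the floor on the OSU-HDAC42 array alone.

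Nr4a1 and Nr4a2, which bind the same DNA element as Nr4a3, stayed below the floor. Nr4a1 (1386935_at) read 17.6 after OSU-HDAC42 and 21.3 after vehicle, a difference of -0.28. The brighter Nr4a2 probe set (1369007_at) read 20.9 and 29.2, a difference of -0.48, and the other (1387410_at) read 9.98 and 10.4. The vehicle array was the higher one for both genes, the opposite of Nr4a3. At such low intensities these values set no firm direction, and the difference between receptors was not tested.

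Fos, the AP-1 subunit that responds to most stimuli, read 478 after OSU-HDAC42 and 339 after vehicle with probe set 1375043_at, a 1.41-fold difference (0.50). A difference that large on the higher side was seen in 11.3% of named probe sets at the floor. The other Fos probe set, 1371283_at, read 10.2 and 6.69 and measures nothing above 16. Fosb (1373759_at), whose product can stand in for FOS, read 38.5 and 32.8 (0.23), below the floor. Junb (1387788_at), a JUN relative often tied to differentiation, read 59.6 and 46.3 (0.37). All 3 readings were higher on the OSU-HDAC42 array, beside 49.2% of all named probe sets at the floor. Junb reached the floor on that array alone. At mean intensities of 400 to 1000, where Fos lies, the 5th to 95th percentiles of all differences ran from -0.64 to 0.67, and Fos lay inside them. Junb lay inside the range from -0.97 to 0.85 of probe sets between the floor and 100.

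Jun, the main partner of FOS in AP-1, had 3 probe sets that did not share a direction. Probe set 1369788_s_at read 1282 after OSU-HDAC42 and 1512 after vehicle (-0.24). Probe set 1389528_s_at read 262 and 223 (0.23). Probe set 1374404_at read 102 and 98.1 (0.057). The brightest was thus higher after vehicle and the other two higher after the drug, and all lay within 1.18-fold. The widest gap between Jun probe sets was 0.47 on the log2 scale, and pairs of probe sets of one gene at the floor differed with a root mean square of 0.41 (3622 pairs in 2116 genes). No direction for Jun can be read from these values.

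Egr1 (1368321_at) read 3278 after OSU-HDAC42 and 3423 after vehicle, 1.04-fold lower after the drug (-0.063). Its signal was bright in both samples, and the arrays were close: at mean intensities over 1000 the SD of differences was 0.31. Atf3 (1369268_at) read 106 and 145, 1.36-fold lower (-0.44). Myc (1368308_at) read 95.7 and 135, 1.41-fold lower (-0.49). Both lay below the vehicle array by less than the SD of 0.54 at their intensities, and 15.1% and 13.1% of named probe sets at the floor were at least that far on the lower side.

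**Figure D2:**
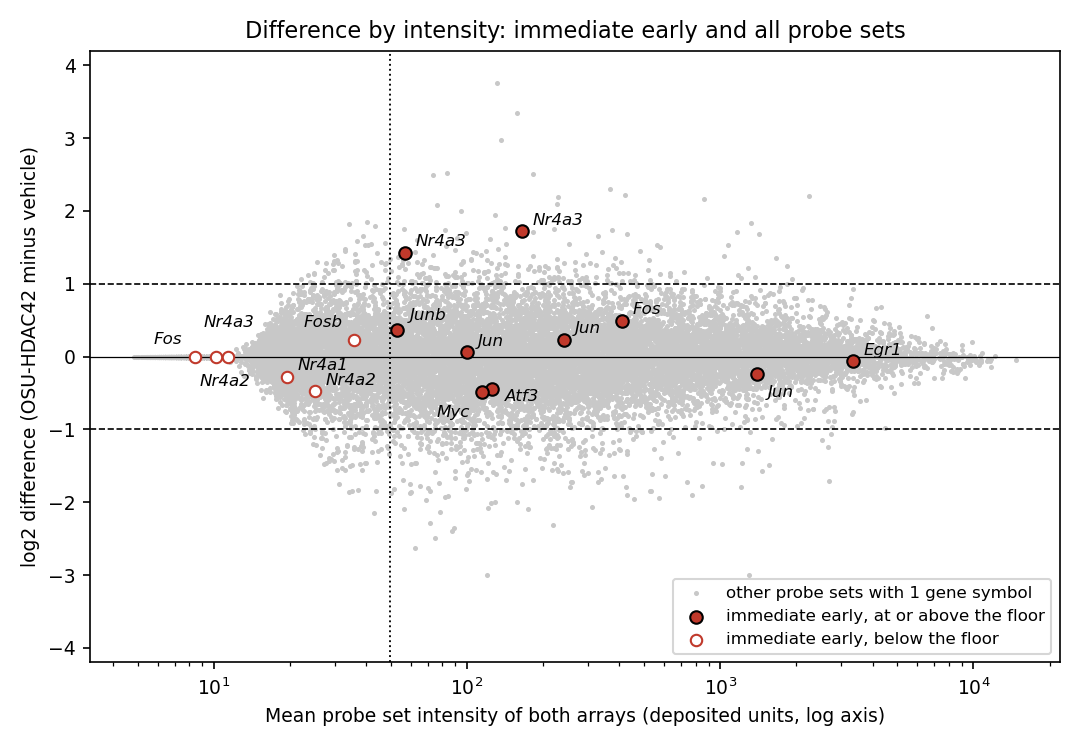
Log2 difference (OSU-HDAC42 minus vehicle) against mean intensity of both arrays (log axis) for the 20826 named probe sets, with the 16 immediate early probe sets labelled by gene. Dashed lines mark 2-fold and the dotted line the floor of 49.8. Both Nr4a3 probe sets above the floor lie outside the 2-fold lines, at 1.72 and 1.43, and every other member lies inside.

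Further immediate early genes outside the set were listed as a comparison. Of 45 measured, 36 reached the floor, 25 of them higher and 11 lower, with a median of 0.061. Over all 9542 genes at that level, 4461 were higher, 5035 (52.8%) were lower and the median was -0.027. In the list 1 gene was 2-fold higher and 0 were 2-fold lower, beside 1.88% and 3.18% of all genes. That gene was Gem, which encodes an RGK-type GTPase that restrains calcium channels, at 138 against 55.3 (2.49-fold, 1.32). The cAMP-responsive repressor gene Crem read 102 and 193 (-0.93), although its other probe set at the floor differed by -0.24. The phosphatase gene Dusp10 read 111 and 63.0 (0.82), and the growth arrest gene Gadd45a 192 and 112 (0.78). Ptgs2, Socs3, Dusp2 and Ccn1 were under 16 on both arrays. Sgk1, Klf6 and Dusp6, also in the list, differed by 0.017, 0.11 and 0.0035. Other Dusp6 probe sets at the floor differed by 0.0017 and 0.42.

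Partners of the members were mostly close between arrays. Of 9 other AP-1 and related bZIP genes at the floor, 1 was higher and 8 lower, all by less than 2-fold (median -0.17). Mafg differed by -0.55, Mafk by 0.49, Ddit3, the stress factor CHOP, by -0.44 and Maff by -0.33. Fosl1 and Batf were under 16 on both arrays, and Jund, the JUN paralog that is made at steady levels, read 3245 and 3419 (-0.075). Nab2, a corepressor that EGR1 itself induces, read 856 and 530 (1.62-fold, 0.69), while Nab1 differed by -0.0068 and Egr2 by 0.31. Egr3 and Egr4 were below the floor.

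Upstream, 15 genes of the SRF, ternary complex factor, CREB and MEF2 activators were measured. Of 14 at the floor, 6 were higher and 8 lower, none by 2-fold (median -0.081). The CREB coactivator gene Crtc1 differed by -0.74, Srf by 0.54, the ternary complex factor gene Elk1 by 0.49 and the acetyltransferase gene Ep300 by -0.39. Crtc1 read 29.9 and 50.1 and reached the floor on the vehicle array alone. In the MAP kinase cascade 6 of 11 genes at the floor were higher and 5 lower, none by 2-fold (median 0.0032). Its largest differences were Map2k6 at -0.53, Mapk7 at -0.42, Map2k1 at 0.42 and Mapkapk2 at 0.36.

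In the MYC dimerisation network, 13 genes were measured. Of 9 at the floor, 6 were higher and 3 lower, all by less than 2-fold (median 0.28). The glucose-responsive factor Mlxip differed by 0.57, the MYC antagonists Mxd1 and Mxi1 by 0.51 and 0.37, and Zbtb17, which encodes the MYC-binding factor MIZ1, by -0.37. The other probe set of Mxi1 differed by -0.23. Max, the obligate partner of MYC, read 1579 and 1305 (0.28). MYC-responsive biosynthesis genes were lower in 14 of 20 cases at the floor and higher in 6, with a median of -0.16, beside 52.8% of all genes at the floor that were lower. By 2-fold, 2 were lower and 0 higher, beside 3.18% and 1.88% of all genes. The lower ones were the cyclin gene Ccnd2, at 326 against 1216 (3.73-fold, -1.90), and Cad, for the enzyme of the first steps of pyrimidine synthesis, at 104 against 246 (2.37-fold, -1.25). The polyamine genes Srm and Odc1 differed by -0.91 and -0.47, and the nucleolar gene Nolc1 by 0.42.

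Genes linked to EGR1, AP-1 or ATF3 as targets gave 12 of 24 measured genes at the floor, 4 higher and 8 lower, all by less than 2-fold (median -0.19). Ccnd1, the cyclin of early G1, read 1183 and 2152 (1.82-fold lower, -0.86). Trib3 differed by -0.63, Hmox1 by -0.56 and Sphk1 by -0.43. The AP-1 matrix protease genes Mmp3, Mmp9, Mmp10 and Mmp13 and the inflammatory genes Il6, Cxcl1 and Cxcl2 were under 16 on both arrays.

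**Figure D3:**
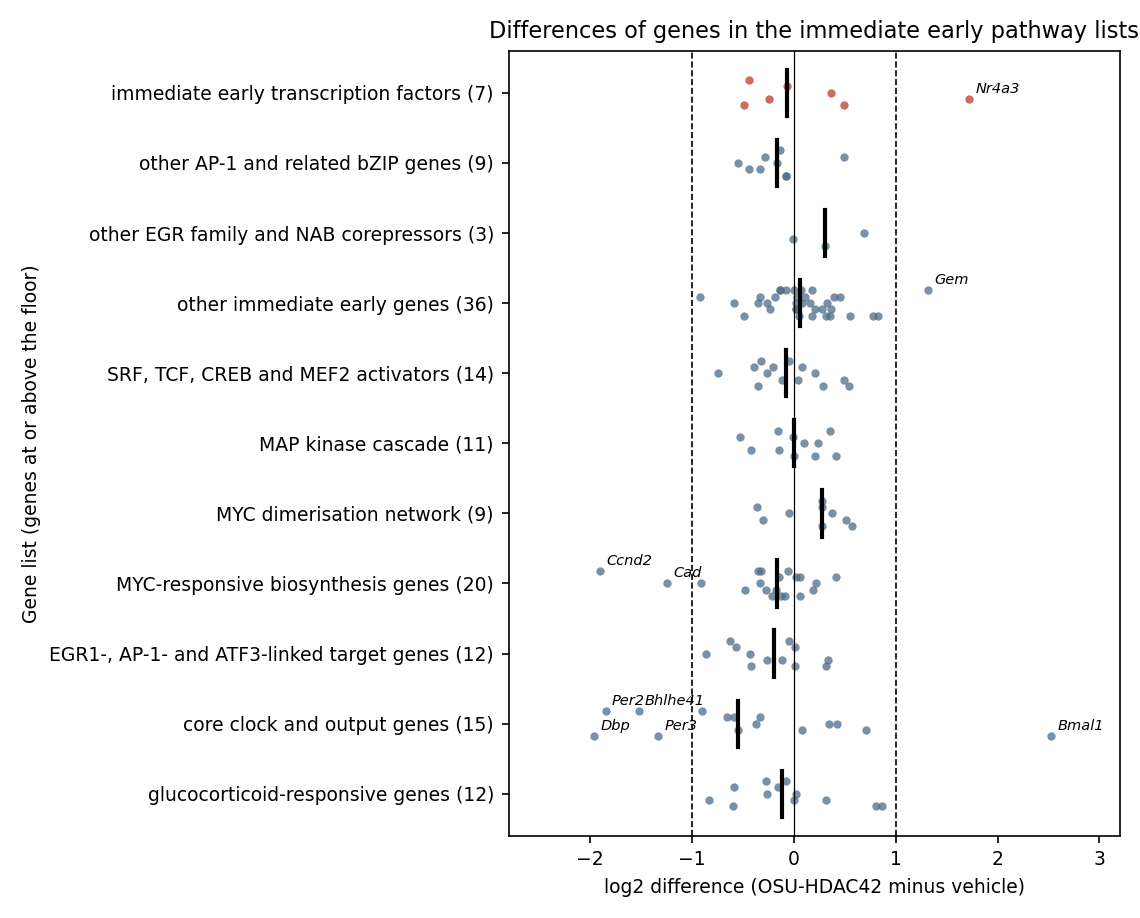
Log2 difference (OSU-HDAC42 minus vehicle) of each gene at the floor, by its brightest probe set, in the member set (top) and 10 other lists, with the number of genes in parentheses, a bar at the median and dashed lines at 2-fold. Nr4a3 (1.72) and Gem (1.32) lie past the right line, as does the clock gene Bmal1 (2.53), which reached the floor on the OSU-HDAC42 array alone.

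Other properties of the samples moved with the treatment, and their part in the differences above was not tested. Fewer cells of a type and less RNA per cell cannot be told apart in whole tissue. Over all genes at the floor, 46.8% were higher and 52.8% lower, and 1.88% and 3.18% were so by at least 2-fold. Keratinocyte genes, which mark the lining of the labelled tissue, gave signal on both arrays, with Krt13 at 14438 and 14947 and Krt5 at 6116 and 6449, and all 14 measured markers of basal or suprabasal keratinocytes reached the floor. Of these, 3 were higher and 11 lower, with the hemidesmosome integrin Itgb4 at 171 against 416 (-1.28), Col17a1 at -0.46, Cnfn at -0.51 and the envelope precursor Ivl at 0.60. All 14 measured skeletal muscle markers were lower after OSU-HDAC42, 10 of them by 2-fold, with a summed intensity of 12511 against 25394. Those 10 were Actn3 (-2.09), Ampd1 (-2.07), Ttn (-1.94), Atp2a1, Myh2, Ryr1, Ckm, Tnni2, Tnnt3 and Acta1 (-1.06). All 10 smooth muscle markers were higher by their brightest probe set (summed 17258 against 11643), 2 of them by 2-fold, Synpo2 (851 against 301, with a further probe set differing by -0.44) and Tagln (1.24). Of 8 fibroblast markers 7 were higher (20872 against 16630), with Thy1 at 1.09. Of 10 macrophage and leukocyte markers, 9 reached the floor and 7 of those were higher (1612 against 1201), with Mrc1 at 1.00. The 8 mast cell markers together summed to 308 against 160. Of these, 2 reached the floor, namely Cpa3 at 131 against 47.5 and Cma1 at 55.6 against 29.7. Both reached it on the OSU-HDAC42 array alone, so their shared direction follows from the floor. Kit and Mcpt1 were under 16 on both arrays. Of 7 endothelial markers at the floor, 2 were higher and 5 lower (2909 against 2844). The blood marker Hbb read 324 and 848. The 6 fat markers together summed to 332 against 411. Of these, Fabp4 (61.2 and 99.4) and Lpl (231 and 275) reached the floor and were lower. Adipoq, Plin1, Cidec and Lep were under 16 on both arrays. The 8 neuron and glia markers together summed to 151 against 153. Of these, Tubb3 alone reached the floor, at 55.2 and 40.3, and Elavl4, Snap25, Gfap and Sox10 were under 16. None of 3 thyroid and 4 airway markers reached the floor, with sums of 46.9 against 47.6 and 82.4 against 78.4.

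Genes of the circadian clock also differed, and some immediate early genes follow the time of day in many tissues. Of 15 clock genes at the floor, 5 were higher and 10 lower, 1 by 2-fold higher and 4 by 2-fold lower (Bmal1 2.53, Dbp -1.96, Per2 -1.85, Bhlhe41 -1.52 and Per3 -1.33), beside 1.88% and 3.18% of all genes. Bmal1 read 143 and 24.7 and reached the floor on the OSU-HDAC42 array alone, so its place among the higher genes follows from the floor. The other probe set of Per2 at the floor differed by only -0.39. Glucocorticoid-responsive genes did not share a direction: of 12 at the floor, 4 were higher, 7 lower and Tsc22d3 equal, none by 2-fold (median -0.12). Fkbp5 differed by 0.87, Mt2A by -0.83, Ddit4 by 0.81 and Mt1 by -0.59.

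**Figure D4:**
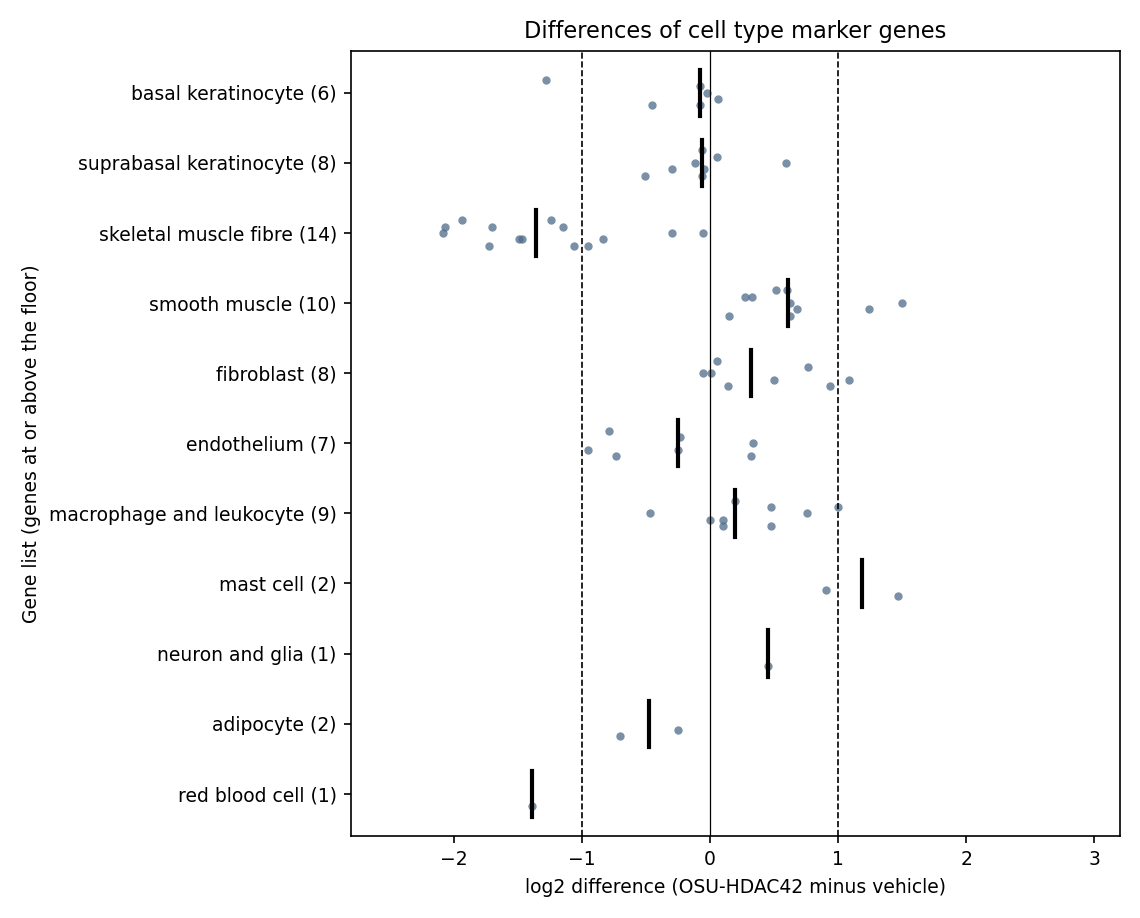
Log2 difference (OSU-HDAC42 minus vehicle) of cell type marker genes at the floor, by brightest probe set, with the number of genes in parentheses, a bar at the median and dashed lines at 2-fold. Skeletal muscle markers lie to the left (median -1.35), smooth muscle markers to the right (0.61), and the keratinocyte medians are -0.079 and -0.061, with Itgb4 at -1.28.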

How the data were processed

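The authors deposited 1 linear intensity for each probe set and array, a unit read from the values. Software names in the submitters' processing notes are GCOS and RMA, whose roles are not given in the sources used here, nor is the authors' scaling of the arrays. Quantile scaling, if used, would remove differences in total signal.

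The 57 control probe sets were left out. The platform annotation gave 1 gene symbol for 20826 of the other 31042 probe sets, several for 436 and none for 9780. Symbols were updated through gene IDs in the RefSeq table of GRCr8, which held 14167 of 14217 genes. Intensities were raised to at least 16 (28.4% of values on the OSU-HDAC42 array, 29.2% on the vehicle array) and log2 transformed. A gene was represented by its brightest probe set. The design lists no test, since each group has 1 array. The number of arrays limits the precision. Counting functions were tested on simulated data with large changes in bright probe sets and little noise. That checks the counting alone and not how counts behave near the floor.

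Members and lists were chosen with earlier results of these data known. All members were named, with, from each pathway list described, up to 4 genes at the floor with the largest differences and every gene past 2-fold. The rule was kept only in part for cell type markers, where genes past 2-fold were named and others for description. Others named (Sgk1, Klf6, Dusp6, Jund, Max, Nolc1 and genes under 16 or used to describe tissue) were chosen after their values were seen. With 2 arrays, no gene could be ranked by likeness of pattern. Alternatives covered raised values, scaling, floor, threshold and probe set choice. Python 3.11.15, pandas 2.3.3, numpy 2.4.6 and statsmodels 0.14.6 were used.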

Additional observations from a re-analysis of the deposited data

How the results depend on the processing

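Under 5 alternatives of raising or scaling, 0 of 65 differences of immediate early probe sets that were not 0 changed sign. Of 80 values, 78 shifted by under 0.41, the root mean square between probe sets of a gene. The exceptions were the dim Fos probe set, at 0.61 with no value raised, and the brighter Nr4a2 probe set, at 0 with values raised to 32. Much of this was set in advance. Raising leaves probe sets above 32 on both arrays unchanged, and centring adds 0.021 to every difference. A value moved to 0 did not count as a change of sign, as for Nr4a1 with values raised to 32. The Nr4a3 differences ran from 1.72 to 1.75 and from 1.37 to 1.45. With the floor at the 75th percentile of intensity, 0 probe sets and 0 genes were 2-fold higher, since no Nr4a3 probe set reaches it. With the threshold at 3-fold, 1 probe set was higher. With the floor required on both arrays, 1 probe set was 2-fold higher, and with the floor set on their mean, 2 were. Both of these settings were chosen after seeing the data. The other counts kept to the reported values under each alternative run, within 1.5 times. The median difference of the member probe sets, where it was recomputed, ran from -0.0027 to 0.021. No paired analysis was possible because the groups hold 1 array each. Low signal limits Fosb, Nr4a1, Nr4a2 and 1 probe set each of Fos and Nr4a3.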
